A study of Mus musculus with 2 samples.

Results

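Condensins are ring-shaped ATPase complexes that fold and compact chromosomes for cell division. The 10 genes described here encode the shared condensin core (Smc2, Smc4), the subunits particular to condensin I (Ncapd2, Ncapg, Ncaph) and to condensin II (Ncapd3, Ncapg2, Ncaph2), and a pair of other proteins of the mitotic chromosome, DNA topoisomerase II alpha (Top2a) and Ki-67 (Mki67). They were chosen by name, with earlier results of these data known. All 10 were found among the 49492 genes of the table and had enough reads to be tested, between 771 and 9369 over both libraries. Mammary basal cells of wild-type adult female mice were sorted from the gland and grown in a 3D gel for 11 to 14 days. They were grown either alone (ctrl) or co-cultured with bone marrow-derived macrophages that had been polarised to an M2-like state with IL-4 and IL-13 (M2). The macrophages sat in a transwell insert, and no genetic change or drug was named for either group. RNA of the colonies and organoids was sequenced, with 1 library per group (26912610 reads in genes for ctrl and 29413844 for M2).

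As there was 1 library a group, the spread between cultures is unknown, and every interval and p-value below covers counting error of the reads only. Against the label of epithelial cells, keratin 14 (81991 reads in ctrl, 68968 in M2) and keratin 5 (56383 and 83619) of basal cells and keratin 8 (29888 and 36348) of luminal cells were abundant. The summed reads of the 7 basal markers differed by 0.00061 on the log2 scale, M2 over ctrl (95% interval -0.008 to 0.0093), with 1 gene called lower (Oxtr, -2.18). In this sum keratin 5 (0.50) and keratin 14 (-0.32), the most read of the 7, went opposite ways. The summed reads of the 11 luminal markers differed by -0.29 (-0.30 to -0.28). In both sums the genes with most reads weigh most. The median of the 11 luminal markers was -0.78, and 2 of them had positive values. Called lower were 5 luminal genes, Pgr (-2.54), Esr1 (-1.94), Kit (-1.67), Prlr (-1.59) and Elf5 (-1.11). Macrophage transcripts were scarce. Of 10 macrophage markers, Adgre1, Ptprc, Fcer1g and Tyrobp had 0 reads in each library, and 7 markers in ctrl and 6 in M2 had 3 reads or fewer. The whole list summed to 276 and 305 reads, most of them from Cd68 (170 and 165 reads) and Csf1r (94 and 92 reads). Neither of these was called, and Aif1 (3 and 40 reads) was called higher. The 7 fibroblast markers summed to 9059 reads in ctrl and 3867 in M2, with 3 called lower and 1 higher, and the 4 endothelial markers to 57 and 81 reads, with 1 called higher and 2 lower. The part of these shifts in cell make-up in the values below was not tested. In whole-culture RNA, more dividing cells and more RNA of a gene per dividing cell cannot be told apart.

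The SMC2 and SMC4 proteins form the arms and ATPase heads of both condensins. A kleisin closes the ring, NCAPH in condensin I and NCAPH2 in condensin II, and a pair of HEAT-repeat proteins binds to it (NCAPD2 and NCAPG, or NCAPD3 and NCAPG2). Condensin II is nuclear through interphase, whereas condensin I reaches the chromosomes mainly after the nuclear envelope breaks down. Topoisomerase II alpha passes DNA strands through each other so that sister chromatids can be untangled, and Ki-67, a common marker of cycling cells, coats the surface of mitotic chromosomes and keeps them apart.

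Transcripts of Top2a, Mki67 and the condensin I subunits Ncapg and Ncapd2 rose in the M2 library by 2.08-fold to 2.58-fold. To be called, a gene needed an adjusted p under 0.05 in a two-sided exact binomial test of its reads and a difference of at least 2-fold. By this rule 4 of the 10 genes were called higher and 0 lower. As the genes were chosen with earlier results of these data known, the counts below describe them and do not test them as a group. Over all 19233 genes tested, 8.16% were called higher and 6.55% lower. Among the 10348 genes with at least 500 reads, a depth that every one of the 10 genes reached, 5.22% were called higher. A positive difference was found for 9 of 10 genes, against 49.7% of all genes tested. The median log2 fold difference of the 10 genes was 0.78, and that of all genes tested was -0.0032. At a 1.5-fold threshold 8 of the 10 genes were called higher, where 12.8% of all genes were, and at 4-fold 0 of 10 were, where 3.20% of all genes were. The calls rested on counting error alone. With an assumed coefficient of variation between cultures of 0.1, 0.2 or 0.4 (edgeR exactTest), 4, 3 and 0 of the 10 genes were called higher, against 7.33%, 5.01% and 0.910% of all genes.

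To set the genes side by side at their starts, the sequence just upstream is shown for the 4 genes called higher and for the pair of condensin II genes that differed least, Ncapd3 and Ncaph2. The stretches are from RefSeq promoters on GRCm38.p6, the build family that the table uses, are written 5′ to 3′ on the strand of the gene, and were shortened so that they hold no base of an exon in GENCODE M21. Capitals mark matches, on either strand, to the cell cycle genes homology region (CHR, TTTGAA, and its variant TTCGAA), the CCAAT box (CCAAT) and short forms of the E2F site (TTCCCGC and TTGGCGC). The CHR is the element through which the DREAM and MuvB complexes are known to control many genes of G2 and mitosis, and CCAAT boxes bind NF-Y.
Top2a (chr11:99024190-99024339, minus strand): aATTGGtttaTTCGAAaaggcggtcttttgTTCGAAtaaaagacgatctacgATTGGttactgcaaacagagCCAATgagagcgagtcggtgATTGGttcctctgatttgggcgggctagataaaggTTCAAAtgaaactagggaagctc
Mki67 (chr7:135716380-135716529, minus strand): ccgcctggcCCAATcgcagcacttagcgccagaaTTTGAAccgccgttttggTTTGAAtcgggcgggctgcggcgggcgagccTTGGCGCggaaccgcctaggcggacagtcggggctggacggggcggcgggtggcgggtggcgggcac
Ncapg (chr5:45669769-45669918, plus strand): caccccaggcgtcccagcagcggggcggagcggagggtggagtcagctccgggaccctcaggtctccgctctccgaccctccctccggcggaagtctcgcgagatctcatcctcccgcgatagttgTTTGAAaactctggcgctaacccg
Ncapd2 (chr6:125191702-125191800, minus strand): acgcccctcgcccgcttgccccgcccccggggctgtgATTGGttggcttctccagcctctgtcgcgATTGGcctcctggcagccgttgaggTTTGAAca
Ncapd3 (chr9:27030066-27030164, plus strand): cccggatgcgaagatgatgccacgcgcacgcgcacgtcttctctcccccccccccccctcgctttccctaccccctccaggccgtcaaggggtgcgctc
Ncaph2 (chr15:89355660-89355718, plus strand): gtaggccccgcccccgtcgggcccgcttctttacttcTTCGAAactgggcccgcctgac

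Each of the 4 genes called higher had a TTTGAA match in its stretch. In its stretch Ncaph2 had only the TTCGAA variant, and Ncapd3 had no match to any of the 5 letter strings. The stretches were of unequal length, 150 bases for Top2a, Mki67 and Ncapg, 99 for Ncapd2 and Ncapd3 and 59 for Ncaph2. Matches in them are therefore not comparable in number. Over the full windows of 300 bases (250 before the RefSeq start and 50 after), which were held for 9 of the 10 genes (not Smc4), Top2a carried the most matches, with 2 TTTGAA, 2 TTCGAA and 6 CCAAT matches, counted on both strands. In Mki67 there were 2 TTTGAA matches, at -116 and -98 from the RefSeq start. For Ncapg the match lay at -30, for Ncapg2 at -18 and for Ncaph2, the TTCGAA form, at -22. The match of Ncapd2 lay at -123 from the RefSeq start, close to the farther upstream start that GENCODE lists. Ncaph had neither CHR form. In its first window Ncapd3 held a match to TTGGCGC, at -240 on the opposite strand. The only CHR match of Ncapd3 lay in the window of a second RefSeq start inside the gene. Counting that window, 7 of 9 genes held TTTGAA, among them Smc2 and Ncapg2, which were not called, and 5 of 9 held a CCAAT box. Of all 27025 genes with a window, 20.2% held TTTGAA. Of all 32851 RefSeq windows of this length, 17.9% held TTTGAA, 1.56% TTCGAA, 37.4% CCAAT, 4.60% TTCCCGC and 2.45% TTGGCGC. Of genes outside the 10, TTTGAA was held by 7 of the 10 mitotic kinases and condensin regulators with a window. It was held by 3 of 16 S phase genes and by 0 of 4 genes of the list of other topoisomerases and partners. TTTGAA was also held by 6 of 11 scaffold and surface partners (median log2 fold difference 0.19) and 7 of 16 transcription factors of G2 and mitosis genes (0.13). The same string was found for 2 of 3 fibroblast markers (-1.53) and 2 of 5 genes of mitotic cohesin control (0.82). These medians are of the whole lists, also of genes without a window. A link between the share of TTTGAA and the fold differences was not tested. TTTGAA was held by 2 of 8 genes of the cohesin ring and its loading and by 1 of 6 SMC5/6 genes. No matches to different strings overlapped in the 9 genes. A match of letters is a description of the sequence and was not tested for binding.

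**Figure D1:**
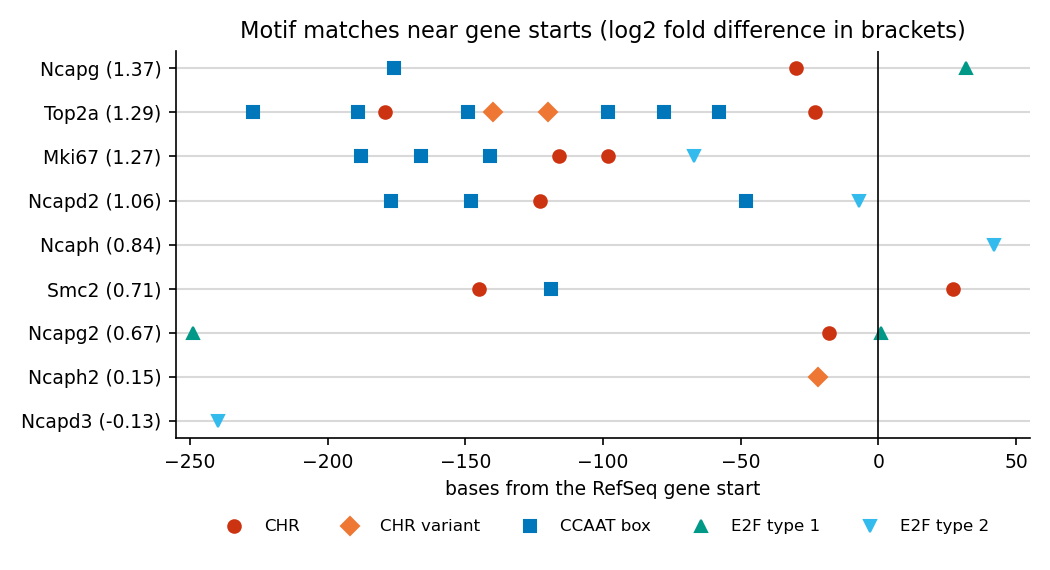
Positions of motif matches (first base of the match, in bases from the RefSeq start, 0 line) in the windows of 9 genes, ordered by log2 fold difference, which is given in brackets. Circles and diamonds mark the CHR forms, squares the CCAAT box and triangles the E2F forms. The window of the second Ncapd3 start is left out. The 4 genes at the top, all called higher, each hold at least 1 circle upstream of the start. Smc2 and Ncapg2, which were not called, also hold 1 there. No circle is shown for Ncaph, Ncaph2 or Ncapd3.

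For Top2a (chromosome 11, 98992943 to 99024189, minus strand) 2389 reads were counted in ctrl against 6118 in M2, which is 87.0 and 212 CPM, the read count relative to the scaled library size. Its log2 fold difference, M2 over ctrl, was 1.29 (95% interval 1.22 to 1.36), a 2.44-fold rise. The adjusted p of the exact binomial test was too small for the program to write as a number above 0. Mki67 (chromosome 7, 135689784 to 135716361, minus strand) had 2656 and 6713 reads, or 96.7 and 233 CPM. Its log2 fold difference was 1.27 (1.20 to 1.33), a 2.41-fold rise, with a p that was also too small to write. The intervals of both genes lay entirely above the 2-fold line. The ratio of Mki67 to Top2a reads was 1.11 in ctrl and 1.10 in M2, so the fold differences of these genes lay within counting error of each other (log2 difference -0.019, 95% interval -0.11 to 0.076).

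**Figure D2:**
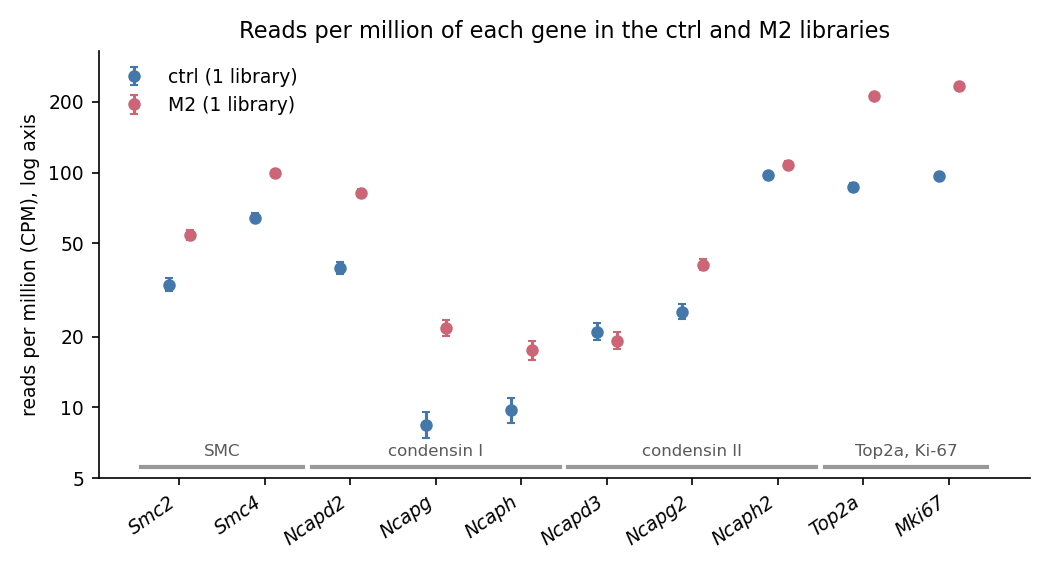
CPM (log axis) of the 10 genes in the ctrl library (blue) and the M2 library (red), with exact 95% Poisson intervals of the counts. Top2a and Mki67 are at 87.0 and 96.7 CPM in ctrl and above 200 CPM in M2, whereas the values of Ncapd3 (21.0 and 19.2 CPM) and Ncaph2 (97.4 and 108 CPM) lie close together.

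Among the condensin I subunits, Ncapg (chromosome 5, 45669919 to 45700546) had the fewest reads in ctrl and the largest difference. Its reads numbered 232 in ctrl against 630 in M2 (8.45 and 21.9 CPM), so that M2 exceeded ctrl by 1.37 on the log2 scale (1.15 to 1.60, adjusted p 3.95e-38 by the exact binomial test). Some 13.4% of the exon bases of Ncapg are shared with Lcorl on the other strand. Because the use of strand in counting was not given in the sources used here, a part of these reads could belong to Lcorl, which had 421 and 546 reads of its own. Ncapd2 (chromosome 6, 125168007 to 125191701), the other HEAT-repeat subunit, had 1078 and 2354 reads (39.2 and 81.7 CPM), a difference of 1.06 (0.95 to 1.16, adjusted p 2.24e-93 by the exact binomial test). It was the called gene closest to the threshold. Its interval reached below 2-fold, and scaling by total counts alone put it just under that line. The kleisin Ncaph (chromosome 2, 127103809 to 127133954) had 267 and 504 reads (9.72 and 17.5 CPM), a difference of 0.84 (0.63 to 1.07, adjusted p 1.58e-14 by the exact binomial test). It lay just under the threshold and was not called. The condensin I subunits summed to 1577 reads in ctrl against 3488 in M2, and the log2 ratio of these sums was 1.08 (0.99 to 1.16).

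The condensin II subunits differed from one another. Ncapg2 (chromosome 12, 116405402 to 116463531) had 701 and 1171 reads (25.5 and 40.6 CPM), a log2 fold difference of 0.67 (0.53 to 0.81). Ncaph2 (chromosome 15, 89355719 to 89372826) had 2676 and 3114 reads (97.4 and 108 CPM), a difference of 0.15 (0.074 to 0.22, adjusted p 2.44e-04 by the exact binomial test). This gene, the most read of the condensin II subunits, shares 19.7% of its exon bases with Sco2 and 12.7% with Tymp, both on the other strand, so its count is uncertain. Ncapd3 (chromosome 9, 27030175 to 27095315) was the only gene of the 10 with a lower value in M2, with 576 and 554 reads (21.0 and 19.2 CPM). Its difference of -0.13 (-0.30 to 0.045) was within counting error (exact binomial test, adjusted p 0.219). None of these genes was called. Their summed log2 ratio was 0.22 (0.16 to 0.28), from 3953 and 4839 reads.

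The shared core lay between the complexes. Smc2 (chromosome 4, 52439243 to 52488260) had 914 and 1565 reads (33.3 and 54.3 CPM), a log2 fold difference of 0.71 (0.59 to 0.83). Smc4 (chromosome 3, 69004738 to 69034623) had 1767 and 2872 reads (64.3 and 99.7 CPM), a difference of 0.63 (0.55 to 0.72). Neither was called. The intervals of both lay above 0 and below 2-fold, and the pair, whose proteins form a heterodimer, differed from each other by 0.075 (-0.072 to 0.22), within counting error. Their summed log2 ratio was 0.66 (0.59 to 0.73). It was below that of condensin I by 0.42 (0.31 to 0.53) and above that of condensin II, which differed from it by -0.44 (-0.53 to -0.34).

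**Figure D3:**
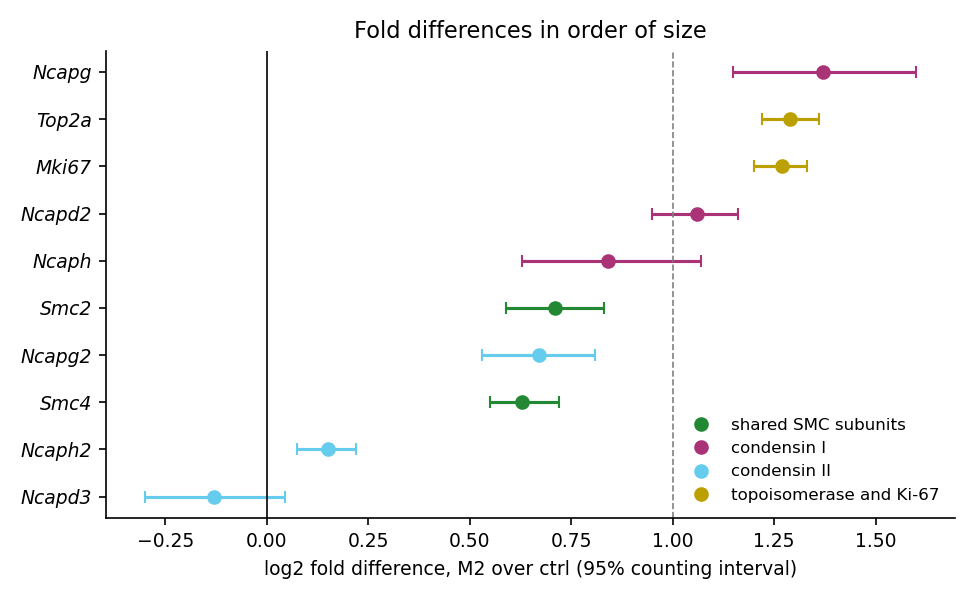
Log2 fold difference, M2 over ctrl, of each gene in order of size, coloured by role, with 95% Clopper-Pearson intervals of the reads. The solid line is at 0 and the dashed line at 2-fold. The intervals of Ncapg, Top2a and Mki67 lie above the dashed line, those of Ncapd2 and Ncaph cross it, and that of Ncapd3 crosses 0.

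In the order of fold differences, Ncapg, Top2a and Mki67 came first, and neighbours among them did not differ beyond counting error. Mki67 exceeded Ncapd2 by 0.21 on the log2 scale (95% interval 0.087 to 0.33). From Ncapd2 through Ncaph, Smc2 and Ncapg2 to Smc4 each neighbour lay within counting error of the next. Smc4 exceeded Ncaph2 by 0.48 (0.37 to 0.60), the largest step, and Ncaph2 exceeded Ncapd3 by 0.27 (0.088 to 0.46). Of all 45 pairs, 10 had an interval that covered 0. These intervals were not adjusted for the number of pairs.

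To compare the complexes within each library, where scaling cancels, the reads of the subunits were set against each other. Condensin I took 28.5% of the reads of the 6 subunits in ctrl (1577 of 5530; 95% Wilson interval 27.3 to 29.7) and 41.9% in M2 (3488 of 8327; 40.8 to 43.0). Of the condensin II reads, 2676 of 3953 in ctrl and 3114 of 4839 in M2 were from Ncaph2, whose exons overlap other genes. The ratio of condensin I to condensin II reads was 0.399 in ctrl and 0.721 in M2. Without Ncaph2 it was 1.23 and 2.02. The log2 fold difference of condensin I exceeded that of condensin II by 0.85 (95% interval 0.75 to 0.96). Without Ncaph2 it still did so by 0.71 (0.57 to 0.85). Each matched pair of subunits went the same way. Ncapd2 exceeded Ncapd3 by 1.18 (0.98 to 1.38), Ncapg exceeded Ncapg2 by 0.70 (0.44 to 0.96) and Ncaph exceeded Ncaph2 by 0.70 (0.47 to 0.93). No p is given, as the genes were chosen with results of these data known.

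Levels between genes were compared as CPM per kilobase of exon (RPKM). In ctrl, Ncaph2 was highest of the 10 genes at 23.2 RPKM, followed by Smc4 at 12.3, Top2a at 9.65 and Mki67 at 9.61. Ncapg was lowest at 1.20. In M2, Ncaph2 stood at 25.7, Top2a at 23.6, Mki67 at 23.2 and Smc4 at 19.1, and the lowest place was taken by Ncapd3 at 2.44. The exon lengths are unions over all listed transcripts. With the longest coding transcript of GENCODE M21 as length instead, Top2a stood above Ncaph2 in M2 (40.7 and 32.7 RPKM), whereas Ncapg in ctrl (2.28) and Ncapd3 in M2 (3.50) remained lowest.

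The matched subunits were unequally abundant, and in different directions. The ratio of RPKM levels of Ncapd2 to Ncapd3 was 2.36 in ctrl and 5.35 in M2. For Ncapg to Ncapg2 it was 0.309 and 0.503, and for the kleisins Ncaph to Ncaph2 it was 0.0973 and 0.158. The HEAT subunit D of condensin I was thus above that of condensin II in each library. The G subunit and the kleisin of condensin II were above those of condensin I. Ncaph2 and Ncapg share exon bases with genes of the other strand, so their levels and the ratios that use them are uncertain. Smc4 was 2.03 times as high as Smc2 in ctrl and 1.93 times in M2. With transcript lengths the kleisin ratio was 0.122 and 0.198, and no ratio of matched subunits crossed 1.

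**Figure D4:**
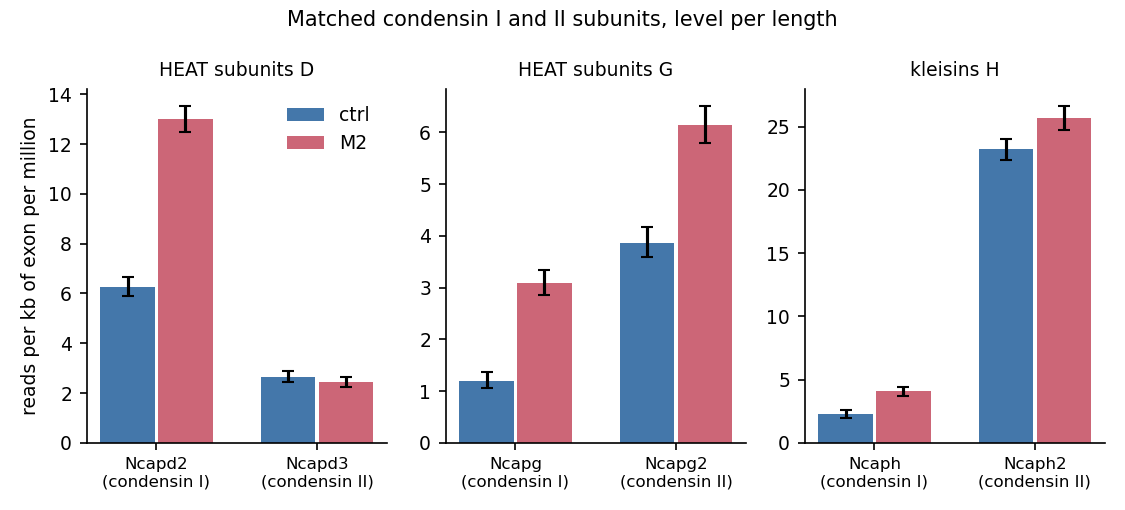
Levels per length (RPKM over the union of exons) of the matched condensin I and II subunits in the ctrl (blue) and M2 (red) libraries, with exact 95% Poisson intervals of the counts. Each panel has its own axis from 0. Ncapd2 stands above Ncapd3, whereas Ncapg and Ncaph stand below Ncapg2 and Ncaph2 in each library.

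Related genes were then counted from lists of their roles, and each count is to be read against the 8.16% of all genes called higher and the 6.55% called lower. Of 14 mitotic kinases, cyclins and condensin regulators, 11 were called higher and 0 lower, with a median log2 fold difference of 1.28. Ttk, a spindle checkpoint kinase, had 86 and 294 reads and rose by 1.69. The cyclins Ccnb2 (237 and 721 reads) and Ccnb1 (260 and 767 reads), which activate CDK1, the kinase that phosphorylates condensin at mitotic entry, rose by 1.53 and 1.49. At the low end, Aurkb, the kinase of the chromosomal passenger complex, had 157 and 244 reads (0.56), and Mcph1, an inhibitor of condensin II, had 257 and 371 reads (0.46). Neither was called.

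Cohesin, the SMC complex that holds sister chromatids together, divided by role. Of 12 genes of the ring and its loading, 0 were called in either direction by the exact binomial rule, and the median was 0.053. Smc1a (12528 and 17243 reads), Rad21 (7106 and 9431 reads) and Smc3 (5837 and 7709 reads) had values of 0.39, 0.34 and 0.33, small differences that still lay outside counting error at this depth. Mau2, of the cohesin loader, had a value of -0.38 and Hdac8, which deacetylates Smc3, one of -0.16. Of 6 genes that control cohesin in S phase and mitosis, 2 were called higher and 0 lower, and all 6 had positive values with a median of 0.82. The shugoshins Sgo2a (191 and 511 reads) and Sgo1 (98 and 224 reads), protectors of centromeric cohesion, rose by 1.35 and 1.12. Cdca5, the sororin gene, had a value of 0.87, Esco2, a cohesin acetyltransferase, 0.69 and Pttg1, the securin gene, 0.67.

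For the 8 genes of the SMC5/6 complex and its partners, which act in DNA repair, 0 were called in either direction by that rule and the median was 0.0017. Nsmce2, Smc5 and Smc6 had values of 0.37, 0.28 and 0.13, and Slf1 and Nsmce4a of -0.26 and -0.27. The list of other topoisomerases held 7 genes, among them Rmi1 and Rmi2, which encode partners of a topoisomerase and not topoisomerases. Likewise 0 were called. The median of the 7 was -0.086, which is the value of Rmi1, and Rmi2 (38 and 31 reads) had a value of -0.35. Top2b, the topoisomerase II that non-dividing cells also use, had 6201 and 5519 reads, a value of -0.24 (-0.29 to -0.18), against the 1.29 of Top2a. Top1mt, Top1 and Top3a had values of 0.35, 0.27 and 0.23, and Top3b of -0.17.

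Of 13 partners of the chromosome scaffold and surface, 3 were called higher and 0 lower, with a median of 0.19. The 3 were the chromokinesins Kif4 (233 and 755 reads, 1.62) and Kif22 (260 and 666 reads, 1.28) and Cdca2 (203 and 494 reads, 1.21), which, like Ki-67, recruits protein phosphatase 1 to chromosomes. Of the genes of this phosphatase in the list, Ppp1ca had a value of 0.19, Ppp1cc of -0.026 and Ppp1cb of -0.22. Akap8l had a value of -0.41. Of 22 S phase genes, 3 were called higher, where 8.16% of all genes were, and 0 lower. A positive value was found for 20 of the 22, against 49.7% of all genes, and the median was 0.50. The 3 called higher were Ccne1 (146 and 441 reads, 1.52), Mcm10 (116 and 272 reads, 1.15) and Gmnn (180 and 409 reads, 1.11). Ccne2 had a value of 0.16 and Gins2 of -0.0061. The summed reads of the S phase list had a log2 ratio of 0.42 (0.39 to 0.45). This was below those of Top2a with Mki67 (1.28, 1.23 to 1.32), condensin I (1.08) and the shared core (0.66). It was above that of condensin II (0.22, 0.16 to 0.28).

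Of 21 transcription factors and pocket proteins that act on G2 and mitosis genes, 0 were called higher and 1 lower, and the median was 0.13. E2f1 (550 and 1120 reads) and E2f8 (292 and 585 reads) had values of 0.96 and 0.93, close to the threshold, and Mybl2, which joins MuvB at CHR elements, had 0.77. E2f2 (379 and 180 reads) fell by 1.14 on the log2 scale, and Lin52, a MuvB subunit, had a value of -0.61.

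**Figure D5:**
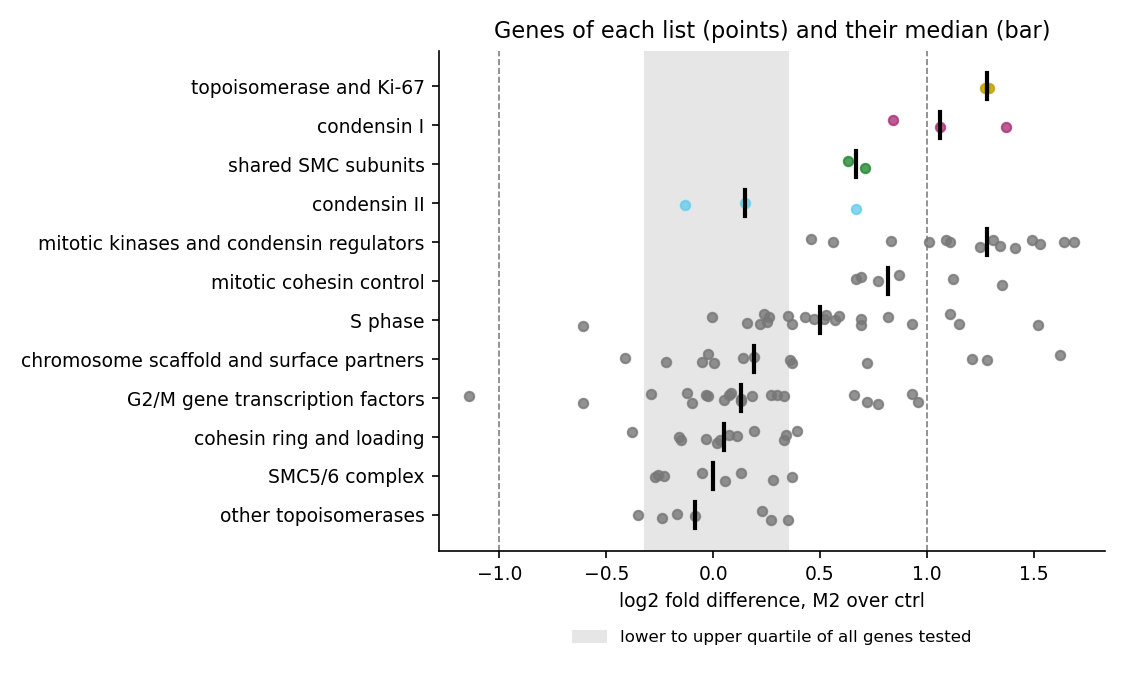
Log2 fold difference, M2 over ctrl, of each gene of the 4 groups described here (coloured) and of 8 related lists (grey), with the median of each as a bar and the 2-fold lines dashed. The grey band runs from the lower to the upper quartile of all genes tested (-0.32 to 0.35). The median of the mitotic kinases (1.28) equals that of Top2a and Mki67. The medians of the cohesin ring, SMC5/6 and other topoisomerase lists lie inside the band. So do those of condensin II (0.15), the scaffold and surface partners (0.19) and the transcription factors (0.13).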

How the data were processed

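The authors deposited 1 table of raw read counts per gene, not normalized, with 1 column each for ctrl and M2, and exon coordinates and lengths. Per the labels, the build was GRCm38 (mm10) and the library kit was SMARTER mRNA-Seq. The aligner, counter, annotation and strand setting are not given in the sources used here. Although the series text speaks of a microarray, the table holds counts of sequencing reads. Genes with at least 10 reads over both libraries were tested (19233 of 49492). Of the gene names, 26 read as dates, and none of these is named. Library sizes were scaled by TMM (edgeR 4.0.16, R 4.3.3; factors 1.021 and 0.980). Log2 fold differences used a pseudocount of 1. The exact binomial test was adjusted by Benjamini-Hochberg over all genes tested, and genes were called at adjusted p under 0.05 and 2-fold. With 1 library per group no quasi-likelihood or DESeq2 test is possible, and the binomial test compares these libraries, not the conditions. Fold intervals are 95% Clopper-Pearson, and those of differences between genes are conditional exact intervals of the odds ratio (scipy 1.17.1). No molecular identifiers are stated. A count of 0 allows up to 3 reads (0.109 CPM in ctrl, 0.104 in M2) for counting error only. Functions were tested on simulated data. The 10 genes, the lists and the motifs were chosen with earlier results of these data known. From each related list the 3 highest and 2 lowest genes with at least 200 reads were named, and of the marker lists genes by their reads. The macrophage markers at 0, Aif1 and the basal and luminal markers called lower were named after their values were seen. Rmi1, Rmi2, Ppp1ca and Ppp1cc were named for their role. In the lists, 5 names were matched through RefSeq synonyms. Alternatives were 3 other scalings, pseudocounts of 0.5 and 5, other read filters, removal of a length trend, fold thresholds of 1.5 and 4, and the edgeR exactTest with assumed coefficients of variation.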

Additional observations from a re-analysis of the deposited data

How the results depend on the processing

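Top2a, Mki67 and Ncapg kept their call under each scaling, pseudocount, read filter and the length correction. Ncapd2 did not: scaled by total counts alone its log2 fold difference, 1.0 after rounding, lay just under the threshold. Without replicates the variation between cultures can only be assumed. With a coefficient of variation of 0.1 assumed in edgeR's exactTest, 4 genes were called higher (7.33% of all genes). With 0.2, 3 were (5.01%), as Ncapd2 at 1.06 was not. With 0.4, 0 were (0.910%), and Ncapg (1.37), Top2a (1.29), Mki67 (1.27) and Ncapd2 (1.06) lost the call. At 0.4 no gene with at least 500 reads passed below an 8.29-fold difference. At a 1.5-fold threshold 8 of the 10 genes were called higher (12.8% of all genes), and at 4-fold 0 were (3.20% of all genes). The excess of condensin I over condensin II was 0.87 after the length trend was removed and ran from 0.71 without Ncaph2 to 0.97 without Ncapg2 when subunits were left out in turn, a choice made after seeing the data. The median of the scaffold and surface partners moved to 0.14 with total counts and 0.13 after the length trend was removed, which also took the cohesin ring median to 0.13; the cause was not tested. No replicate could be left out. No paired analysis was possible because there was 1 library of each group.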
